A study of Mus musculus with 6 samples.

Results

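The genes described here are 28 named genes of cholesterol synthesis, of its control by the transcription factor SREBP2, and of cholesterol efflux and storage, taken by gene name. Of these, 24 were matched to a transcript cluster, the set of probes that stands for a gene, among 19505 gene symbols in all. Acat2, Tm7sf2, Nr1h2 and Soat1 were not analysed here. Expression was measured on Affymetrix whole-transcript arrays in tubular epithelial cells freed by collagenase from mouse kidneys. Both groups had received the same acute injury, with blood flow stopped for 30 min and the kidney taken 24 h after its return. In the first group (3 arrays, IR) the mice had been given vehicle. In the second (3 arrays, IRPT) they had been given PT2385, which blocks the pairing of HIF-2α with ARNT, at 10 mg/kg in 4 doses, the first 16 h ahead of the operation and the later ones 1, 8 and 20 h past it; the protocol names the injected compound PT2384 in one place. The labels give no strain, age, sex or animal number. Values are log2 signals, so a difference of 1 is a factor of 2, and every difference is PT2385 minus vehicle.

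Cells make cholesterol from acetyl-CoA through mevalonate, isoprenoid diphosphates, squalene and lanosterol. When sterols in the endoplasmic reticulum fall, SCAP escorts SREBP2 to the Golgi for cleavage and the released factor switches on nearly all of the synthesis genes. When sterols rise, INSIG proteins hold SCAP back, and oxysterols activate the liver X receptors, which induce the efflux pumps ABCA1 and ABCG1. In the kidney, tubular cells also take up lipoproteins and fatty acids from filtrate and blood, and cholesterol is known to build up in the cortex after injury.

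Some features of the arrays stand beside every difference. The Y-linked gene Eif2s3y had log2 signals of 9.09, 9.24 and 9.28 with vehicle and 3.27, 3.04 and 3.34 with PT2385, and Uty (8.58 to 8.76 against 2.85 to 3.25) and Kdm5d (6.34 to 6.58 against 3.24 to 3.37) were split in the same way. The arms therefore differ in Y-linked transcripts, and an effect of PT2385 and a difference in sex between the mice cannot be told apart. Markers of nephron segments also differed. Over all clusters 0.829% had an adjusted p under 0.05 and 14.5% an unadjusted p under 0.05. Arrays did not overlap between the groups for 11.6% of clusters with higher values in the PT2385 group and 9.13% with lower. All 9 measured marker genes of Henle's loop and distal tubule had positive differences with arrays that did not overlap between the groups and an unadjusted p under 0.05, and 1 of them passed the threshold (adjusted p under 0.05). Their median difference was 1.03, and the differences ran from 0.33 to 2.43 (Egf, named after its value was seen). Their summed linear signal was 12017 to 13813 with vehicle and 16892 to 24239 with PT2385. The brightest of them, Umod and Slc12a3, differed by 0.33 and 0.55. The one past the threshold, Cldn19, named after its value was seen, rose by 1.24, a call that was lost on leaving out replicate 1 or 2 of the vehicle group or replicate 2 of the PT2385 group (adjusted p = 0.0985, 0.114 and 0.149). Of the 11 collecting duct markers 0 passed in this limma fit, 6 had an unadjusted p under 0.05 and 9 were higher without overlap. Their sums were 3492 to 4096 and 5279.9 to 5759 (Aqp2 1.10, Aqp3 0.29) and their median difference was 0.42. Aqp2, the water channel gene of the collecting duct, passed with quantile normalization (adjusted p = 0.0491), cyclic loess (0.0463), only the brighter clusters tested (0.0494), a trended and robust prior (0.0467) and array weights (0.0168). The sums of the 13 proximal tubule markers overlapped between the groups, at 25794 to 30649 and 20898 to 35333 (Slc27a2 -0.14, Slc34a1 -0.15). Singly, 1 gene of this list was higher without overlap, Cdh16 (0.23), which is not specific to the proximal tubule. Hnf4a (-0.25) and Slc22a6 were the 2 lower without overlap, and 4 genes of the list had an unadjusted p under 0.05. Cdh16 and Hnf4a were named after their values were seen. The organic anion transporter gene Slc22a6, also named after its value was seen, fell past the threshold (-0.97, adjusted p = 0.00572). Slc27a2 and Slc34a1, which mark proximal tubule cells, lay above every background control row (at most 7.47) in all 6 arrays, so the labelled tubular cells were present. Of 11 macrophage and neutrophil markers 8 had negative differences and 1, Lyz2, fell past the threshold (-1.19), with sums of 1503 to 1799 against 986 to 1516, while Cd14 had 0.14. Of the markers of lymphocytes (6), endothelium (7), stroma (7) and podocytes (4), 0 passed, with 0, 0, 2 and 0 at an unadjusted p under 0.05. Their brightest members had 0.05 (Cd8a), 0.16 (Nkg7), 0.14 (Emcn), 0.34 (Plvap), -0.42 (Acta2), 0.14 (Col3a1), 0.08 (Podxl) and -0.02 (Synpo). In such isolates a change in the share of a cell type and a change in RNA per cell cannot be told apart.

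The comparison asked how the cholesterol genes of injured tubular cells differ between the PT2385 and vehicle arms. Of the 24 measured genes, 0 passed the threshold in limma's test over all clusters, which called 0.829% of the 22206 clusters tested (184, with 74 higher and 110 lower, or 57 and 135 with arrays centred on their medians). That count was 81, 65 and 72 without vehicle replicates 1, 2 and 3 and 42 without PT2385 replicate 2. At an unadjusted p under 0.05 there were 4 (Mvk, Pmvk and Cyp51 with higher values, Hsd17b7 with lower), against 14.5% of all clusters. The arrays of the groups did not overlap for 4 genes with higher values in the PT2385 group (Mvk, Pmvk, Fdft1 and Cyp51), against 11.6% of all clusters, and for 1 with lower values (Hsd17b7), against 9.13%. These shares lie near the background. The median difference over the 24 genes was 0.05, beside 0.02 over all clusters, and the median size of a difference was 0.14, beside 0.12. Differences ran from -0.66 (Hsd17b7) to 0.32 (Mvk).

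**Figure D1:**
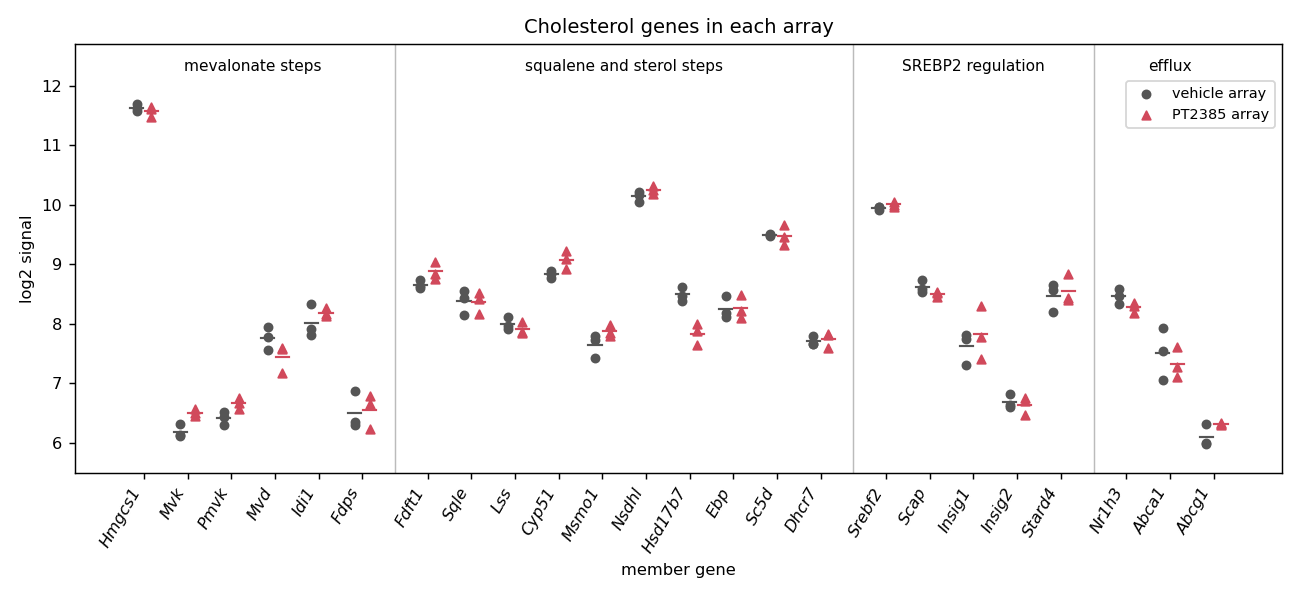
Log2 signal (vertical axis) of the 24 measured cholesterol genes (horizontal axis, by role) in 3 vehicle arrays (grey circles) and 3 PT2385 arrays (red triangles), with horizontal lines at the group means. The points of most genes intermix, while the PT2385 points of Hsd17b7 (7.64 to 7.99) all lie under its vehicle points (8.39 to 8.62).

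A p above the threshold does not show that a gene was equal in the groups, so the intervals carry the information. The 95% confidence interval of the difference lay within a factor of 2 either way for all 24 genes, and within a factor of 1.5 for 20 of them. The exceptions to the narrower bound were Mvd, Hsd17b7, Insig1 and Abca1. Over all clusters 21556 and 18329 of 22206 met these bounds. Intervals are per gene and not adjusted for the number of genes. Both group means of all 24 genes lay above 4.47, the largest of the 6 per-array medians of negative control probes, and those of 17 genes lay above every one of the background control rows, whose values ran from 2.41 to 7.47 by probe. For Mvk, Pmvk, Mvd, Fdps, Insig2, Abca1 and Abcg1 the lower group mean lay under the highest of these rows.

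**Figure D2:**
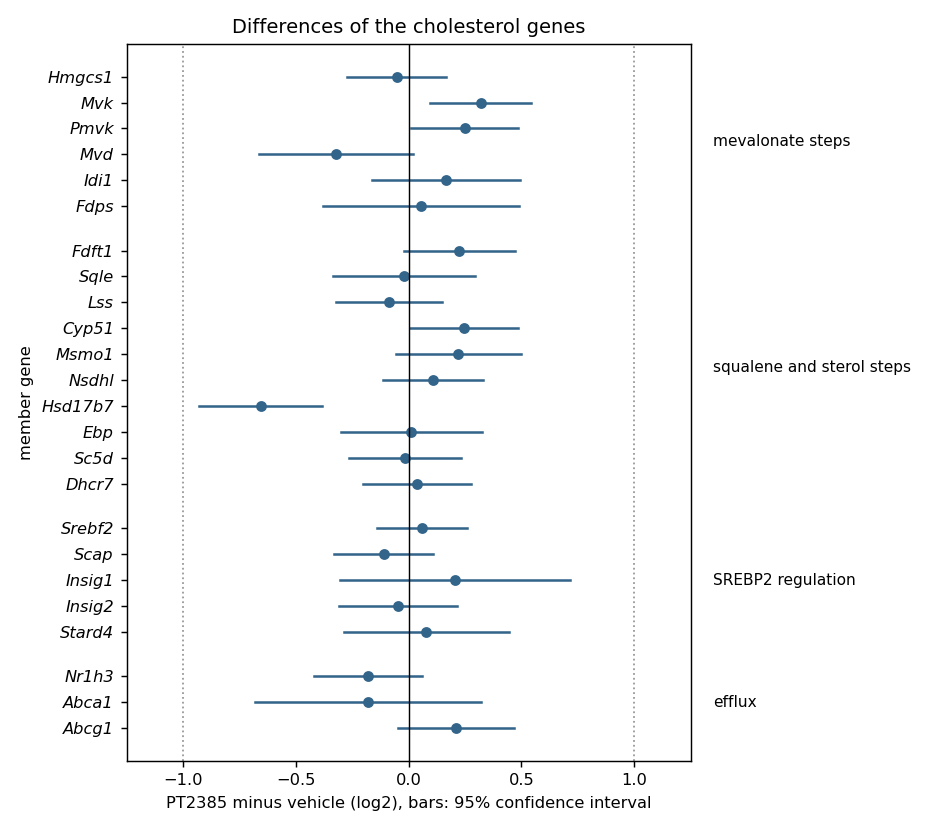
Difference of each measured cholesterol gene (PT2385 minus vehicle, log2, horizontal axis; points) with its 95% confidence interval (bars, n = 3 arrays per group); dotted lines mark a factor of 2 either way. Every bar lies between the dotted lines, and the bar of Hsd17b7 (-0.93 to -0.38) is the one farthest from 0.

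Promoter sequence was read from RefSeq (GRCm38.p6), which gave windows for 23 of the 28 genes; Abcg1, Fdft1, Fdps, Sqle and Stard4 were not among them. In the 250 bases before each annotated start, 3 short motifs were searched on both strands, with no overlap between them. The core of the sterol regulatory element bound by SREBP proteins, TCACNCCAC, was found in 1 of the 23 genes, Hmgcs1, against 1.22% of all 27025 genes and 1.05% of all windows. The CCAAT box bound by NF-Y, a partner of SREBP2 at sterol-responsive promoters, was found in 18 of 23 (78.3%), against 37.5% of all genes and 33.8% of windows. The E-box CACGTG was found in 6 of 23 (26.1%), against 6.86% of genes and 6.02% of windows. A match describes letters in the window and not a bound site. The lack of a match to these exact letters in 250 bases does not show that a gene has no sterol element. The windows of 3 genes are shown, because one holds the match to the sterol element, one belongs to the standard feedback target of SREBP2, and one to the gene with the largest difference here. They are Hmgcs1 (chr13:119690101-119690350, plus strand), Insig1 (chr5:28071162-28071411, plus strand) and Hsd17b7 (chr1:169969206-169969455, minus strand), all 5′ to 3′ and ending at the base before the start, with the motif matches in capitals.
Hmgcs1: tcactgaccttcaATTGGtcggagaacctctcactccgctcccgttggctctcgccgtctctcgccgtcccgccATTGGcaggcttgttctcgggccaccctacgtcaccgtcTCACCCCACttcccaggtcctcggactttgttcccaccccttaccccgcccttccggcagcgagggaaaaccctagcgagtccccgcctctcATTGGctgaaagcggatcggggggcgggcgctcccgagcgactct
Insig1: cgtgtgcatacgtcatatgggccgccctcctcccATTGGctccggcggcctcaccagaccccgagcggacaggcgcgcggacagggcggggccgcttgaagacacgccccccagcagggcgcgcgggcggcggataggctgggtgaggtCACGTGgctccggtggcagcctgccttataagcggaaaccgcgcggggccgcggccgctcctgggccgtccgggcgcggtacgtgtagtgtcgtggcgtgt
Hsd17b7: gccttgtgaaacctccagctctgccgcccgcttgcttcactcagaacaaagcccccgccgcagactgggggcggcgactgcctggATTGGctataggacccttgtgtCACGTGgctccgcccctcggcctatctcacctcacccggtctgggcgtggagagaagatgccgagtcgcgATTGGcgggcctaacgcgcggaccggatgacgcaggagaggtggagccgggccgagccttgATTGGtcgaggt
The sterol element of Hmgcs1 begins 137 bases before the start, and its CCAAT boxes, in reverse, begin 237, 176 and 45 bases before it. Hsd17b7 has CCAAT boxes, also in reverse, that begin 165, 73 and 12 bases before its start and an E-box at 143. Insig1 has 1 CCAAT box, in reverse, at 216, and an E-box at 101.

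Of the 6 measured enzymes of the mevalonate steps 0 passed the threshold, and their median difference was 0.11. Hmgcs1, which makes HMG-CoA from acetoacetyl-CoA and is a classic SREBP2 target, had log2 signals of 11.63, 11.57 and 11.70 with vehicle and 11.61, 11.48 and 11.64 with PT2385. These values overlap almost fully, with a difference of -0.05 (SE 0.10, 95% interval -0.27 to 0.17, adjusted p = 0.836). Its SD within groups, 0.08, was smaller than that of all but 12.6% of clusters, so Hmgcs1 is among the more tightly measured genes here.

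The kinases after it had slightly higher values in the PT2385 group. Mvk, which phosphorylates mevalonate, had 6.11, 6.31 and 6.13 with vehicle and 6.57, 6.45 and 6.50 with PT2385, a difference of 0.32 (SE 0.10, interval 0.10 to 0.54, adjusted p = 0.210). Pmvk, which adds the second phosphate, had 6.29, 6.53 and 6.43 against 6.76, 6.57 and 6.67, a difference of 0.25 (SE 0.10, adjusted p = 0.325). Neither gene had a PT2385 array at or under its highest vehicle array, but neither passed the threshold, and both have levels that some background control probes also reach.

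The next enzymes of this arm spread without a common direction. Mvd, which decarboxylates mevalonate diphosphate to the first isoprenoid unit, had 7.78, 7.56 and 7.95 with vehicle and 7.59, 7.57 and 7.17 with PT2385 (difference -0.32, SE 0.15, adjusted p = 0.370). PT2385 replicate 3 was its lowest array, and the other PT2385 arrays lay at the level of vehicle replicate 2. Idi1, the isomerase that readies isoprenoid units for joining, had 8.34, 7.91 and 7.81 against 8.16, 8.14 and 8.26 (difference 0.17, SE 0.14, adjusted p = 0.625). Fdps, which builds farnesyl diphosphate, had 6.30, 6.86 and 6.34 against 6.23, 6.66 and 6.79 (difference 0.06, SE 0.19, adjusted p = 0.918). Fdps had a within-group SD of 0.30, larger than that of 93.2% of clusters, and its interval of -0.38 to 0.49 is correspondingly wide.

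Of the 10 measured enzymes from squalene to cholesterol 0 passed the threshold, with 6 positive and 4 negative differences and a median of 0.02. The gene farthest from 0 was Hsd17b7, which encodes the 3-keto-sterol reductase that works with NSDHL in removing the methyl groups of lanosterol and which can also convert estrone to estradiol. Its log2 signals were 8.39, 8.62 and 8.46 with vehicle and 7.87, 7.64 and 7.99 with PT2385. Every PT2385 array lay under every vehicle array, with means of 7.84 ± 0.18 and 8.49 ± 0.12 (SD, n = 3 each). The difference was -0.66 (SE 0.12, interval -0.93 to -0.38), a ratio of 0.635, with an adjusted p = 0.0541, just short of the threshold. The adjusted p fell under 0.05 with arrays centred on their medians (0.0433), with only the brighter 11103 clusters tested (0.0407), with a trended and robust variance prior (0.0353) and with array weights (0.0188). It stayed above 0.05 with clusters dimmer than the negative controls left out (0.0508), X and Y clusters left out (0.0564) and 1 cluster per gene (0.0567). The same held with cyclic loess (0.0605), quantile normalization (0.0625) and a block on replicate numbers (0.0895). The adjusted p lay between 0.0562 and 0.231 when any single array was left out. The Y-linked and distal markers above move with the same groups, and their part in this difference was not tested.

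The genes that act before the sterol ring is closed showed small differences. Fdft1, squalene synthase, had 8.63, 8.60 and 8.73 with vehicle and 8.84, 8.75 and 9.05 with PT2385, a difference of 0.23 (SE 0.11, adjusted p = 0.381). Its groups did not overlap, though the gap between vehicle replicate 3 and PT2385 replicate 2 was small. Sqle, squalene epoxidase and a rate-limiting enzyme of the pathway, had 8.56, 8.15 and 8.43 against 8.16, 8.41 and 8.51, a difference of -0.02 (SE 0.14, interval -0.33 to 0.30, adjusted p = 0.965) whose sign turned with quantile and cyclic loess normalization. Lss, which closes the ring to give lanosterol, had 7.92 to 8.11 against 7.85 to 8.03 (difference -0.09, SE 0.10, adjusted p = 0.735). The arrays of both genes intermixed.

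Among the enzymes that turn lanosterol into cholesterol, the other demethylation genes, Cyp51, Msmo1 and Nsdhl, had positive differences that did not pass the threshold. Cyp51, the lanosterol demethylase, had 8.88, 8.83 and 8.78 with vehicle and 9.22, 8.93 and 9.08 with PT2385, a difference of 0.24 (SE 0.10, interval 0.01 to 0.48, adjusted p = 0.339). Msmo1, the methyl sterol oxidase, had 7.72, 7.80 and 7.43 against 7.84, 7.80 and 7.98 (difference 0.22, SE 0.12, adjusted p = 0.441). Nsdhl, the decarboxylating dehydrogenase that acts with HSD17B7, had 10.16, 10.21 and 10.04 against 10.32, 10.24 and 10.18 (difference 0.11, SE 0.10, adjusted p = 0.639). The differences between these genes and Hsd17b7 were not tested. For the last steps, the sterol isomerase gene Ebp differed by 0.01 (SE 0.14, interval -0.30 to 0.32), the desaturase gene Sc5d by -0.02 (SE 0.11, interval -0.26 to 0.23) and Dhcr7, whose product makes cholesterol itself, by 0.04 (SE 0.11, interval -0.20 to 0.28), with adjusted p between 0.900 and 0.979; the signs of Ebp and Dhcr7 turned with arrays centred on their medians and that of Sc5d with quantile and cyclic loess normalization. Nsdhl and Ebp are the 2 genes of the list on the X chromosome, and neither passed the threshold.

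**Figure D3:**
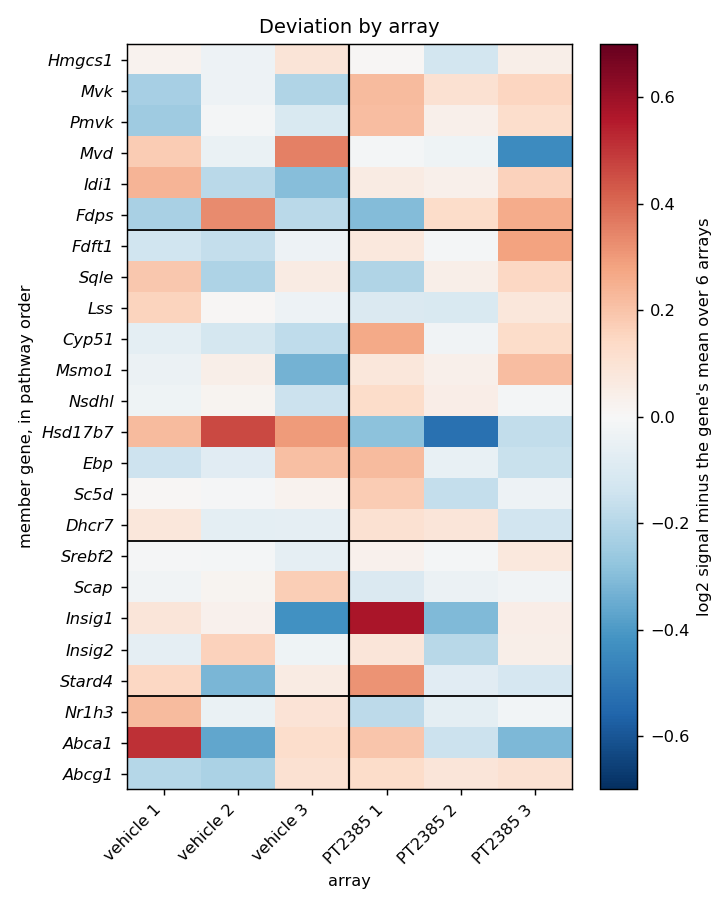
Deviation of each array's log2 signal from the gene's mean over the 6 arrays (colour scale, red above and blue below), with genes in pathway order (rows) and arrays in columns; the vertical line parts vehicle from PT2385 and the horizontal lines part the roles. Hsd17b7 is red in all vehicle columns and blue in all PT2385 columns, while Insig1 and Abca1 vary as much within a group as between groups.

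The genes that control SREBP2 gave 0 of 5 past the threshold and a median of 0.06. Srebf2 itself had 9.97, 9.96 and 9.91 with vehicle and 10.00, 9.96 and 10.05 with PT2385, a difference of 0.06 (SE 0.09, interval -0.14 to 0.26, adjusted p = 0.792). Its within-group SD of 0.04 was smaller than that of all but 1.57% of clusters, so this gene was measured with little spread. Scap, the sterol sensor and escort, had 8.53, 8.58 and 8.73 against 8.46, 8.52 and 8.53 (difference -0.11, SE 0.10, adjusted p = 0.629). The protein activity of SREBP2 depends on cleavage, which signals of its messenger do not measure.

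Insig1, which encodes an anchor that holds SCAP back when sterols rise and which is itself induced by SREBP2, was the most variable gene of the 24. It had 7.81, 7.75 and 7.30 with vehicle and 8.29, 7.41 and 7.77 with PT2385, a difference of 0.21 (SE 0.22, interval -0.30 to 0.72, adjusted p = 0.704). PT2385 replicate 1 stood highest and the other PT2385 arrays lay inside the vehicle range; without that replicate the difference was -0.03. Its paralog Insig2, which is less dependent on SREBP2, had 6.60, 6.82 and 6.63 against 6.75, 6.47 and 6.70 (difference -0.05, SE 0.11, adjusted p = 0.888). Stard4, which carries sterol between membranes and is a target of SREBP2, had 8.66, 8.19 and 8.57 against 8.83, 8.44 and 8.39 (difference 0.08, SE 0.16, adjusted p = 0.857). The mean deviation of these 5 genes from their averages was 0.18, -0.13 and 0.0040 with PT2385 and 0.03, -0.02 and -0.06 with vehicle, so the widest gap lay between 2 arrays of one group. For the 16 synthesis genes the same measure stayed between -0.04 and 0.04 in all 6 arrays.

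On the efflux side, 0 of 3 measured genes passed and their median was -0.18. Nr1h3, which encodes LXRα, a nuclear receptor for oxysterols, had 8.59, 8.33 and 8.47 with vehicle and 8.19, 8.30 and 8.35 with PT2385, a difference of -0.18 (SE 0.11, adjusted p = 0.472). Abca1, the pump that loads cholesterol onto apolipoprotein A-I, had 7.93, 7.05 and 7.54 against 7.61, 7.27 and 7.10 (difference -0.18, SE 0.22, interval -0.68 to 0.32, adjusted p = 0.736). Its vehicle arrays alone spanned more than the groups differed, and the difference was 0.03 without vehicle replicate 1. Abcg1, which moves cholesterol to high-density lipoprotein, had 6.01, 5.99 and 6.32 against 6.33, 6.29 and 6.31 (difference 0.21, SE 0.11, adjusted p = 0.432). Its PT2385 arrays matched vehicle replicate 3 and lay above the other 2 vehicle arrays. Abca1 and Abcg1 are both LXR targets, and their differences had opposite signs.

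None of the 28 genes encodes an uptake receptor, so a separate list of 17 uptake and lysosomal genes was read, of which 16 were measured. Of these 1 fell and 0 rose past the threshold (0.829% of all clusters were called), 5 had an unadjusted p under 0.05, all with lower values (14.5% of all clusters, either way), and the median was -0.11. Cd36, a scavenger receptor that takes up fatty acids and oxidised lipoproteins, had 10.93, 10.78 and 11.06 with vehicle and 9.22, 8.53 and 8.48 with PT2385. The PT2385 values all lay far under the vehicle values, a difference of -2.18 (SE 0.19, interval -2.61 to -1.74, adjusted p = 0.00186), or a level 4.52-fold lower. The adjusted p of Cd36 stayed between 8.16e-05 and 0.0199 over 16 alternative settings. The groups also did not overlap, without passing the threshold, for the scavenger receptor genes Msr1 (-0.66, adjusted p = 0.0969) and Olr1 (-0.28, adjusted p = 0.344), the lipoprotein receptor gene Lrp8 (-1.01, adjusted p = 0.135) and the sorting receptor gene Sorl1 (0.18, adjusted p = 0.396); these 4 were chosen after their values were seen. With Cd36 that makes 4 genes lower and 1 higher without overlap, beside 9.13% and 11.6% of all clusters. Olr1 had group means of 4.82 with vehicle and 4.54 with PT2385, close to the negative control level of 4.47. The means of Msr1 (6.55 and 5.89) and Lrp8 (6.69 and 5.67) were at levels that some background control probes also reach. Macrophages also carry Cd36 and Msr1. The macrophage and neutrophil marker Lyz2 fell by 1.19 on the log2 scale in the same arrays (adjusted p = 0.0202, and 0.0635 and 0.131 without vehicle replicate 3 and PT2385 replicate 2). Of the 11 markers in that list 8 had negative differences, among them S100a8 (-1.56, adjusted p = 0.0972) and Itgam (-0.95, adjusted p = 0.0974). Neither passed the threshold. The markers of that list named here, other than Lyz2 and Cd14, were named after their values were seen. Csf1r (-0.09) and Adgre1 (-0.05) differed little, and the 3 positive ones were C1qa (0.11), C1qb (0.23) and Cd14 (0.14). The part of macrophages in the fall of Cd36 was not tested.

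**Figure D4:**
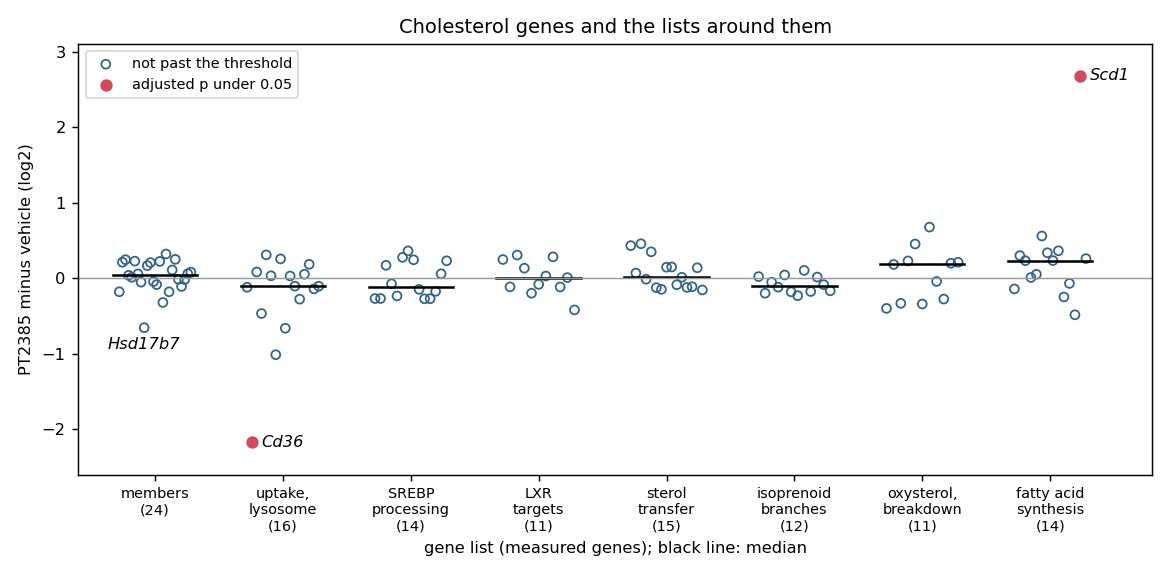
Differences (PT2385 minus vehicle, log2, vertical axis) of the measured cholesterol genes and of 7 surrounding gene lists (horizontal axis, number of genes in brackets); filled red points passed the threshold, open points did not, and black lines are medians. Cd36 (-2.18) and Scd1 (2.68) are the filled points, and the 24 cholesterol genes lie between -0.66 and 0.32.

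The lists around the pathway had few genes past the threshold. Over all clusters 0.829% passed it and 14.5% had an unadjusted p under 0.05. Of 14 measured genes of SREBP cleavage, degradation and co-factors 0 passed (3 at an unadjusted p under 0.05, median -0.11); the smallest p values were those of the sterol-binding protein gene Pgrmc1 (0.24), the vesicle coat gene Sec23a (-0.27) and the NF-Y subunit gene Nfyc (0.28). Of 11 LXR targets and partners 0 passed (2 at an unadjusted p under 0.05, median 0.01), with Smpdl3a at -0.42, Abcg8 at 0.31 and the phospholipid-remodelling gene Lpcat3 at -0.20. Abcg8 had group means of 3.19 and 3.49, under the negative control level, so it carries no interpretable change. Of 15 sterol transfer and esterification genes 0 passed (3 at an unadjusted p under 0.05, median 0.01), with the caveolin gene Cav1 at 0.43, the sterol transfer gene Gramd1b at 0.46 and Lcat, also under the negative control level, at 0.35. Of 12 genes of the isoprenoid branches, which draw on the same mevalonate, 0 passed (0 at an unadjusted p under 0.05, median -0.10), with Icmt at -0.23, Dhdds at -0.20 and Ggps1 at -0.18.

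Oxysterol and cholesterol breakdown genes gave 0 of 11 past the threshold in the limma fit, with a median of 0.18. At an unadjusted p under 0.05 there were 3, against 14.5% of all clusters. Ephx1, though in this list, encodes an epoxide hydrolase that acts mainly on foreign compounds. Its signals were 8.13, 8.42 and 7.78 with vehicle and 8.79, 8.69 and 8.87 with PT2385, a difference of 0.68 (SE 0.16, adjusted p = 0.114). Cyp46a1, which makes an oxysterol mainly known from brain, differed by 0.45 (adjusted p = 0.135, and 0.0478 with array weights) at dim levels, and Cyp7b1, which hydroxylates oxysterols, by -0.34 (adjusted p = 0.339). Fatty acid synthesis genes, the domain of SREBP1, gave 1 of 14 past the threshold (0.829% of all clusters), 4 at an unadjusted p under 0.05 (3 higher, 1 lower; 14.5% of all clusters) and a median of 0.23. That gene, the desaturase gene Scd1, had 7.30, 7.43 and 7.49 against 10.53, 9.98 and 9.74, a difference of 2.68 (SE 0.18, adjusted p = 0.000394). In the same arrays the synthesis genes of the SREBP2 arm had a median difference of 0.05, and the difference between the 2 sets of genes was not tested.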

How the data were processed

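The deposited values are log2 signals per transcript cluster and array, made by the authors with Transcriptome Analysis Console, per the submitters' processing notes; how signals were summarised and normalized is not given in the sources used here, and no step was repeated. Of 28846 rows, 6640 controls were left out and 22206 clusters were tested with no filter on dim signals. Clusters were named from the platform annotation (19572 with 1 symbol, 0 with several, 2634 with none); 55 genes had several clusters and were represented by their brightest cluster on average. The labels' IRPT was read as PT2385 and IR as vehicle.

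Groups were compared with limma 3.58.1 (R 4.3.3; lmFit and eBayes, treatment as the only term, 2-sided), and p-values were adjusted by Benjamini-Hochberg over all clusters. The fit was tested on simulated data. All 28 genes are described; from each surrounding list the genes named are up to 4 past the threshold or otherwise the 3 with the smallest p, and from each marker list the 2 brightest. Cell markers and gene lists, like the 28 genes, were chosen with earlier results of these data known. Separate animals are named nowhere in the labels; p-values then measure only how far these samples spread, possibly for technical reasons, and the number of arrays limits the precision. Promoter windows and gene names came from RefSeq tables (GRCm38.p6). Alternatives tried were a block on replicate numbers, other normalizations, filters, variance priors, array weights, omission of X and Y clusters and omission of each array.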

Additional observations from a re-analysis of the deposited data

How the results depend on the processing

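Of the 24 cholesterol genes 0 passed the threshold in every fit that left out 1 array (0 to 0), and 1, Hsd17b7, passed with arrays centred on their medians, with only the brighter 11103 clusters tested (but not with clusters dimmer than the negative controls left out, 0.0508), with a trended and robust prior and with array weights. The clusters called numbered 184, against 456 with array weights and 42 to 179 without single arrays. The median difference of the synthesis members (0.05) was 0.000895 with centred arrays and 0.037 to 0.10 without single arrays. The SREBP2 regulation median (0.06) was -0.037 with array weights and -0.059 to 0.082 without single arrays, and the efflux median (-0.18) ran from -0.25 to 0.030 without single arrays. With the replicate number as a block 0 cholesterol genes and 178 clusters passed, and the smallest adjusted p among the genes was 0.0895, that of Hsd17b7. Same-numbered arrays had correlations of deviations of 0.14, 0.03 and -0.06. With 3 arrays per group these values do not settle whether the numbers pair the arrays. Under the block Lrp8 (adjusted p = 0.0305) and Aqp2 (0.00917) also passed; Slc12a3 passed with array weights (0.0469) and without PT2385 replicate 3 (0.0351).

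Some differences near 0 changed sign. With arrays centred on their medians, the differences were -0.035 for Ebp and -0.0082 for Dhcr7. With quantile normalization, the differences were 0.037 for Sqle, 0.041 for Sc5d, -0.023 for Cd8a and 0.031 for Synpo. With cyclic loess, the differences were 0.030 for Sqle, 0.037 for Sc5d, -0.032 for Cd8a and 0.023 for Synpo. With array weights, the differences were 0.017 for Sqle, -0.013 for Ebp, -0.037 for Insig1 and 0.027 for Synpo. Without single arrays the ranges were -0.060 to 0.24 for Fdps, -0.13 to 0.082 for Sqle, -0.097 to 0.12 for Ebp, -0.41 to 0.030 for Abca1, -0.28 to 0.62 for Cd14, -0.10 to 0.040 for Insig2, -0.061 to 0.17 for Stard4, -0.78 to 0.0071 for Acta2, -0.086 to 0.066 for Synpo, -0.015 to 0.23 for Emcn, -0.0058 to 0.11 for Dhcr7, -0.028 to 0.41 for Insig1, -0.11 to 0.063 for Sc5d, -0.48 to 0.20 for Slc34a1 and -0.0040 to 0.33 for Col3a1. The cause of these changes was not tested. Signals near the control rows limit what dim genes can show.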
